A study of Mus musculus with 8 samples.

Results

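The lens transport genes described here are the connexins Gja1 and Gja3, the aquaporins Mip, Aqp1 and Aqp5, the sodium pump subunit Atp1b1 and the carriers Slc16a12 and Slc7a5. They were taken by symbol from a table of 54532 gene identifiers. All 8 were found, and all 8 were among the 15857 genes with enough counts to test. Messenger RNA was measured in lens capsules of wild-type C57BL/6 mice of 6 to 8 weeks, 7 days after surgery. The 4 ASC libraries came from eyes whose anterior lens capsule was pierced in its centre with a 26-gauge needle passed through the cornea, an injury the submitters call ASC and use as a model of fibrotic cataract. The 4 sham libraries came from eyes with a cut in the cornea and a closed capsule. Both groups therefore carry the corneal wound, and they share strain, age and time. The labels do not say how many capsules went into a library.

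The lens has no blood vessels. A single layer of epithelium lies under its anterior capsule, and those cells turn into the elongated, organelle-free fibres that make up its bulk. Sodium pumps of the surface cells, gap junctions built from connexins and water channels of the aquaporin family together drive a circulation of ions, water and nutrients through this tissue. Epithelium and fibres use different family members: Gja1 (connexin Cx43) and Aqp1 belong to the epithelium, while Gja3 (Cx46) and Mip (AQP0) are channels of fibres. Aqp5 is found in both compartments of the mouse lens.

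Library totals lay between 14420494 and 21141582 counts. The transcription factors Pax6 and Foxe3, which mark lens epithelium, averaged 410 ± 20.7 and 335 ± 61.0 CPM (counts scaled to a common library size, with TMM scaling) in ASC, against 455 ± 20.3 and 329 ± 11.8 CPM in sham (SD, n = 4 each). The fibre crystallins Cryba1 and Crygs had at least 21789 and 13875 CPM in every library, so the capsule preparations held RNA of both lens compartments. Other tissues were also present. Summed CPM of 7 photoreceptor markers, Gnat1 among them, was 1960 to 3730 in ASC and 997 to 4177 in sham, where sham 3 was highest and sham 1 and sham 2 lowest. Summed CPM of 5 red cell markers, led by Hbb-bs and Hba-a1, did not overlap between the groups (73.9 to 370 in ASC, 40.1 to 62.8 in sham).

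None of the 8 genes passed the test of ASC against sham. The test was edgeR's quasi-likelihood test with Benjamini-Hochberg adjustment over all tested genes and a threshold of 0.05, and 1.02% of all tested genes passed it, 0.631% higher and 0.391% lower in ASC. DESeq2, which called 3.74% of tested genes, and limma-voom, which called 1.01%, also called 0 of the 8. At an unadjusted p under 0.05 there was 1 of the 8, Aqp1, where 14.7% of all tested genes lay below that value. For 0 of the 8 did the 4 ASC libraries lie on 1 side of the 4 sham libraries, against 9.06% of all tested genes (3.39% higher, 5.67% lower in ASC). The median log2 fold change (ASC over sham) of the 8 was 0.09, beside 0.008 over all tested genes. It was positive for 6 and negative for 2, but for 3 and 5 when libraries were scaled by their totals alone. That scaling moved the median of all tested genes to -0.116. In bulk tissue, fewer cells of a type and less RNA per cell cannot be told apart.

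**Figure D1:**
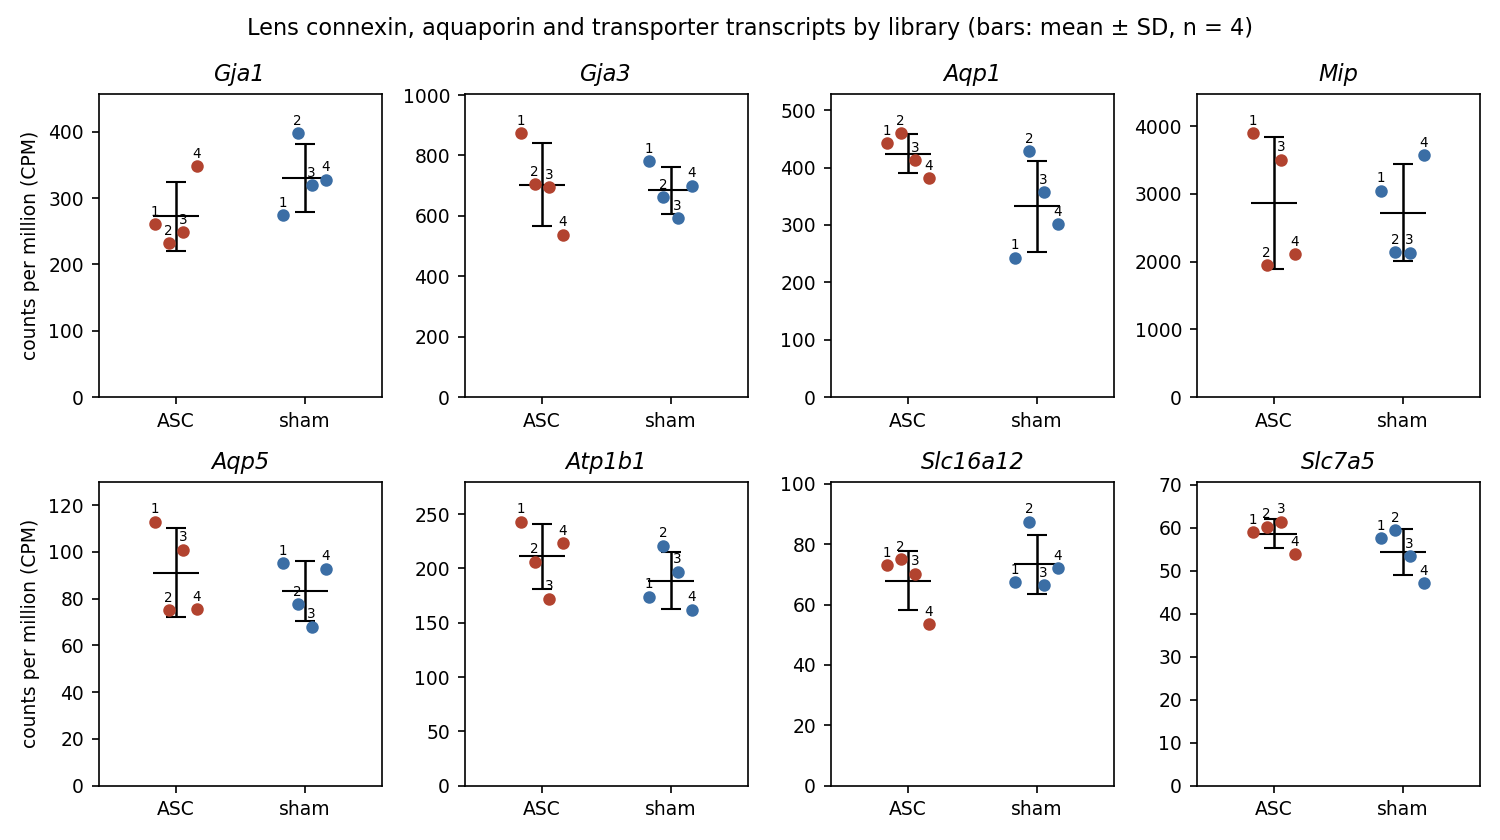
CPM (vertical axis, from 0) of each of the 8 genes in the 4 ASC and 4 sham libraries, with the replicate number over each point and the mean ± SD as bars. The groups overlap in every panel; Gja1 has 3 ASC libraries below every sham library and ASC 4 at 348 CPM, and Aqp1 has sham 1 lowest at 243 CPM.

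Levels were compared between genes as CPM per kilobase of exon, using GENCODE M21 exon lengths. By this measure Mip stood highest in both groups, at 1337 ± 458 CPM per kilobase in ASC and 1271 ± 332 in sham (SD, n = 4 each), rank 23 of 15843 genes in sham. Gja3 followed at 237 ± 46.4 in ASC and 231 ± 26.6 in sham, Aqp1 at 161 ± 13.1 in ASC and 127 ± 30.0 in sham, and Atp1b1 at 68.5 ± 9.7 in ASC and 61.2 ± 8.48 in sham. In each group the ranges of these 4 neighbours in the order did not overlap. The next pair could not be ordered: Gja1 ranged from 22.6 to 34.0 in ASC and from 26.7 to 38.8 in sham, and Aqp5 from 28.9 to 43.6 in ASC and from 26.1 to 36.6 in sham. Slc16a12 (16.3 ± 2.35 in ASC, 17.6 ± 2.34 in sham) and Slc7a5 (15.8 ± 0.889 in ASC, 14.7 ± 1.47 in sham) were lowest and also overlapped. The order of the first 4 was the same in both groups.

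Gja1 encodes the gap junction protein that couples lens epithelial cells. It had 261, 232, 249 and 348 CPM in ASC 1 to 4, against 274, 398, 320 and 328 CPM in sham 1 to 4. ASC 1, ASC 2 and ASC 3 lay below every sham library, and ASC 4 lay above all but sham 2. The log2 fold change was -0.28 (SE 0.15, 95% confidence interval -0.60 to 0.05; edgeR adjusted p = 0.418), a 0.825-fold level with an interval of 0.660 to 1.03. Without ASC 4 it was -0.42, and the smallest adjusted p over all 18 alternatives was 0.188. Of 4 lens epithelial markers 2 had positive log2 fold changes, and 1 passed the threshold. That was Mab21l1, lower in ASC (75.3 ± 7.89 CPM in ASC, 147 ± 19.2 CPM in sham; edgeR adjusted p = 0.00209). The summed level of the 4 was 896 to 1105 CPM in ASC and 1049 to 1210 CPM in sham, with overlap. ASC 4 also had the highest summed corneal epithelial, stromal, pigment and leukocyte marker levels of the 8 libraries. Cornea and ciliary epithelium also make Gja1, and their part in this library's value was not tested.

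Gja3 forms gap junctions between fibre cells. It had 874, 705, 695 and 538 CPM in ASC 1 to 4 and 782, 663, 593 and 700 CPM in sham 1 to 4. The highest and the lowest of the 8 libraries were both ASC. Means were 703 ± 137 CPM in ASC and 685 ± 78.8 CPM in sham (n = 4 each; log2 fold change 0.04, interval -0.29 to 0.37; edgeR adjusted p = 0.94), so the interval holds folds of 0.818 to 1.29.

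The epithelial and the fibre connexin were set against each other within each library, which needs no scaling between libraries. The log2 ratio of Gja1 to Gja3 counts was -1.74, -1.60, -1.48 and -0.63 in ASC 1 to 4 and -1.52, -0.74, -0.89 and -1.09 in sham 1 to 4. The ASC libraries held both the lowest and the highest ratio. The mean difference, ASC minus sham, was -0.31, which did not exceed the spread between libraries (two-sided exact permutation p = 0.4 over 70 assignments, n = 4 each; adjusted over 3 ratios, 0.629; the smallest p possible is 0.0286). Without ASC 4 the difference was -0.55 (exact permutation p = 0.0857).

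Promoter windows of the epithelial and the fibre gene of each family are printed because they are the pairs contrasted here. They come from RefSeq (build GRCm38.p6), which gave windows for 7 of the 8 genes, each from 250 bases before to 50 bases after a start site, read 5′ to 3′ on the gene's strand. Capitals mark every match, on either strand, to the AP-1 core TGANTCA, the Maf half-site TGCTGA (its reverse is TCAGCA) or the TATA box TATAAA (its reverse is TTTATA). AP-1 answers to injury signals, and Maf proteins switch on fibre genes. The AP-1 core and the Maf half-site can share bases where TGCTGA is followed by any base and then TCA. Of all 32851 windows in the table, 7.81% held the AP-1 core, 19.5% the Maf half-site and 13.6% the TATA box.
Gja1, chr10:56377050-56377349, plus strand: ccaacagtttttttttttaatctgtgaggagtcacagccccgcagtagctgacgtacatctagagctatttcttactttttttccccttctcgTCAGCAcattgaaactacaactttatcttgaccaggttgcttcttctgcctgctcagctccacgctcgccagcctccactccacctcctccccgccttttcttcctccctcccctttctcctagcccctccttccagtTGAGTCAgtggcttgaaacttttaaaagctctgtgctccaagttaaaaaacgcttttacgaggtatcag
Gja3, chr14:57057981-57058280, minus strand: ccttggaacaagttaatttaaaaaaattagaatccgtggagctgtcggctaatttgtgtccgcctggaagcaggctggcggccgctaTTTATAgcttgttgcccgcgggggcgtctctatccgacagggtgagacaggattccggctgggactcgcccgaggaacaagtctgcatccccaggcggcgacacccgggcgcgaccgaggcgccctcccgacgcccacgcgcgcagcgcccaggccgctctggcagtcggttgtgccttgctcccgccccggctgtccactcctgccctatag
The Gja1 window held 1 AP-1 core (TGAGTCA) starting 19 bases before the start site and 1 Maf half-site. This Gja3 window, the first of 2 given, held 1 match to the TATA box in reverse and neither of the other motifs. That match starts 163 bases before the start site. A match describes these letters and is not evidence of binding.

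Mip is the major membrane protein of lens fibres and acts both as a water channel and in cell adhesion. It had 3899, 1949, 3507 and 2112 CPM in ASC 1 to 4 and 3050, 2140, 2135 and 3576 CPM in sham 1 to 4. Each group held a high and a low pair of libraries, and the groups overlapped over most of their range. Means were 2867 ± 981 CPM in ASC and 2725 ± 712 CPM in sham (n = 4 each; log2 fold change 0.07, interval -0.50 to 0.65; edgeR adjusted p = 0.932). Mip varied most of the 8 genes, with a coefficient of variation of 34.2% in ASC and 26.1% in sham. Its interval accordingly holds folds of 0.706 to 1.57, the widest of the 8.

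The summed CPM of 12 fibre markers (without Mip) stood in a similar order over the libraries: in ASC the libraries with the highest Mip, ASC 1 and ASC 3, had 91074 and 74244, against 49146 and 57489 in ASC 2 and ASC 4. In sham the libraries with the highest Mip, sham 4 and sham 1, had 73822 and 60419, against 46241 in sham 2 and 39359 in sham 3. This sum is mostly that of the crystallins Cryba1 and Crygs, which made up 81.7% to 91.6% of it in ASC and 90.6% to 93.8% in sham.

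Between the groups the fibre markers were not alike. All 12 had positive log2 fold changes (10 when scaled by library totals alone, 11 with upper quartile scaling), with a median of 0.79 beside 0.008 over all tested genes. EdgeR called 0 of the 12, with 5 at an unadjusted p under 0.05, beside 1.02% and 14.7% of all tested genes. DESeq2 called 4 (Lgsn, Birc7, Dnase2b and Bfsp1), beside 3.74%, and limma-voom called 2 (Lgsn and Birc7), beside 1.01%. Cryba1 (0.16), Crygs (0.22), Grifin (0.03) and Caprin2 (0.01) had log2 fold changes near that of Mip, 0.07.

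Lgsn, a lens protein related to glutamine synthetase, had 5463, 668, 3231 and 3243 CPM in ASC 1 to 4 and 253, 253, 470 and 652 CPM in sham 1 to 4. Birc7, an inhibitor of apoptosis, had 174, 22.9, 80.8 and 120 CPM in ASC 1 to 4 and 5.66, 4.34, 8.09 and 14.8 CPM in sham 1 to 4. Both were higher in every ASC library than in every sham library, ASC 2 by the least. Such a separation was seen for 3.39% of all tested genes. For Lgsn the log2 fold change was 2.95 (interval 1.33 to 4.57), with an adjusted p of 0.118 in edgeR, 3.31e-05 in DESeq2 and 0.0318 in limma-voom. For Birc7 it was 3.63 (interval 1.87 to 5.38), with an adjusted p of 0.0856 in edgeR, 1.1e-05 in DESeq2 and 0.0406 in limma-voom. These markers are named after their values were seen, and 3 of the 12 (Lim2, Bfsp1 and Bfsp2) are also fibre membrane genes described further on. How far the amount of fibre in each capsule sets the Mip level was not tested.

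Aqp5, which in the mouse lens is made by epithelium and fibres, had 113, 75.2, 101 and 75.6 CPM in ASC 1 to 4 and 95.2, 77.6, 68.0 and 92.8 CPM in sham 1 to 4. Its log2 fold change was 0.13 (interval -0.21 to 0.47; edgeR adjusted p = 0.751). In ASC its libraries stood in the same order as those of Mip, and in sham the 2 highest and the 2 lowest libraries were those of Mip. The log2 ratio of Aqp5 to Mip accordingly stayed within -5.11 to -4.70 in ASC and -5.27 to -4.79 in sham, with an SD of 0.21 and 0.20. The difference between the groups was 0.08 (two-sided exact permutation p = 0.629, n = 4 each; adjusted over 3 ratios, 0.629).

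Aqp1, the water channel of the lens epithelium, had 442, 460, 413 and 382 CPM in ASC 1 to 4 and 243, 428, 357 and 301 CPM in sham 1 to 4. All ASC libraries lay above sham 1, sham 3 and sham 4, and sham 2 lay within the ASC range. Means were 424 ± 34.3 CPM in ASC and 332 ± 78.9 CPM in sham (n = 4 each). Its log2 fold change of 0.35 (SE 0.16, interval 0.01 to 0.69) was the highest of the 8. In edgeR's quasi-likelihood test p was 0.0436 before adjustment and 0.322 after it. Over all 18 alternatives the log2 fold change was 0.215 to 0.489 and the adjusted p 0.151 to 0.634.

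Aqp1 is also abundant in red cells, corneal endothelium and ciliary epithelium. Beside its levels, all 5 red cell markers had positive log2 fold changes, with 0 past the threshold, and summed to 308, 121, 73.9 and 370 CPM in ASC 1 to 4 and 60.9, 62.8, 40.1 and 51.4 CPM in sham 1 to 4. The order of the libraries differed from that of Aqp1: ASC 4 had the most red cell RNA and the least Aqp1 of the 4 ASC libraries. Of 6 corneal stroma and endothelium markers 4 were tested, all 4 with positive log2 fold changes and 0 past the threshold, and their summed level was 617 to 1320 CPM in ASC and 523 to 690 CPM in sham. Kera, which defines the stroma, was at 0 CPM in 7 of the 8 libraries. The part of these tissues in the Aqp1 level was not tested.

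Against the fibre channel, the log2 ratio of Aqp1 to Mip was -3.14, -2.08, -3.09 and -2.47 in ASC 1 to 4 and -3.65, -2.32, -2.58 and -3.57 in sham 1 to 4. The groups overlapped, and the difference of 0.34 did not exceed the spread between libraries (two-sided exact permutation p = 0.457, n = 4 each; adjusted over 3 ratios, 0.629). Per kilobase, Mip took 85.3% ± 3.96 of the summed level of 12 aquaporins in ASC and 87.2% ± 4.40 in sham. Aqp1 took 11.1% ± 3.46 in ASC and 9.29% ± 3.79 in sham, and Aqp5 2.32% ± 0.234 in ASC and 2.24% ± 0.220 in sham. The promoter windows of the aquaporin pair follow.
Mip, chr10:128225560-128225859, plus strand: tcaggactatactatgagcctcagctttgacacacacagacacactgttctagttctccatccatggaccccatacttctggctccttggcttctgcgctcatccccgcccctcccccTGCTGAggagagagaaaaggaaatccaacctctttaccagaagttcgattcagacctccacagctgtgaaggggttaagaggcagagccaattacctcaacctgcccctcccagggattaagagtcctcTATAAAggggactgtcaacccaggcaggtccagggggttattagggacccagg
Aqp1, chr6:55336049-55336348, plus strand: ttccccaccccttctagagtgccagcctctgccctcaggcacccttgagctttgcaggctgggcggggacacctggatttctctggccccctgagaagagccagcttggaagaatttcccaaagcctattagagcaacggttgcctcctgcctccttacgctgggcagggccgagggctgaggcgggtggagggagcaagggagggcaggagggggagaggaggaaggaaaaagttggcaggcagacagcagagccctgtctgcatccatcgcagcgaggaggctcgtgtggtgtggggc
The Mip window held 1 Maf half-site, starting 132 bases before the start site, and 1 match to the TATA box, starting 3 bases before it. The Aqp1 window held 0 matches to the 3 motifs.

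**Figure D2:**
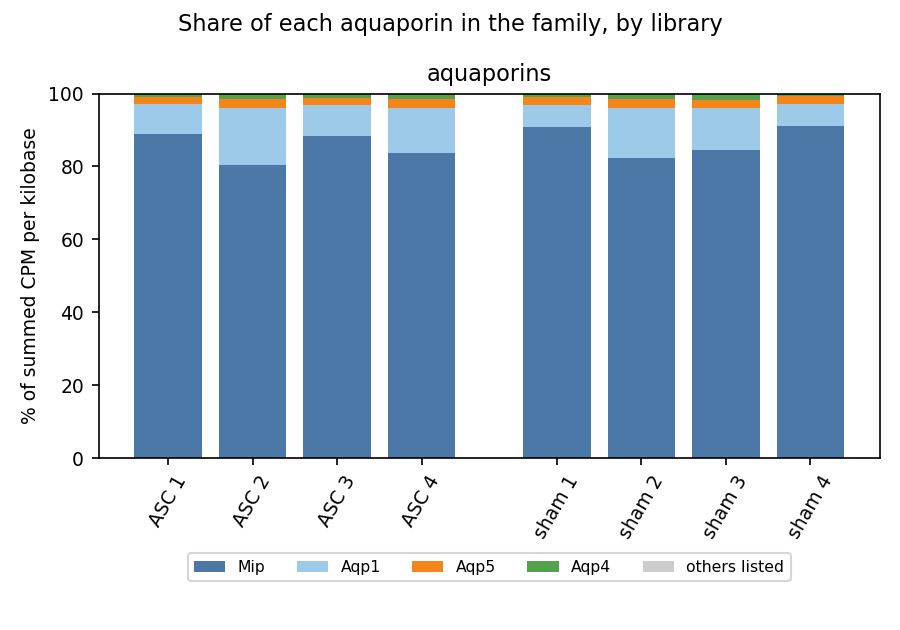
Share of each gene in the summed CPM per kilobase of 12 aquaporins (vertical axis, percent) in each ASC and sham library. Mip fills most of the bar in all 8 libraries, from 80.5% in ASC 2 to 91.0% in sham 4, and Aqp1 is next.

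**Figure D3:**
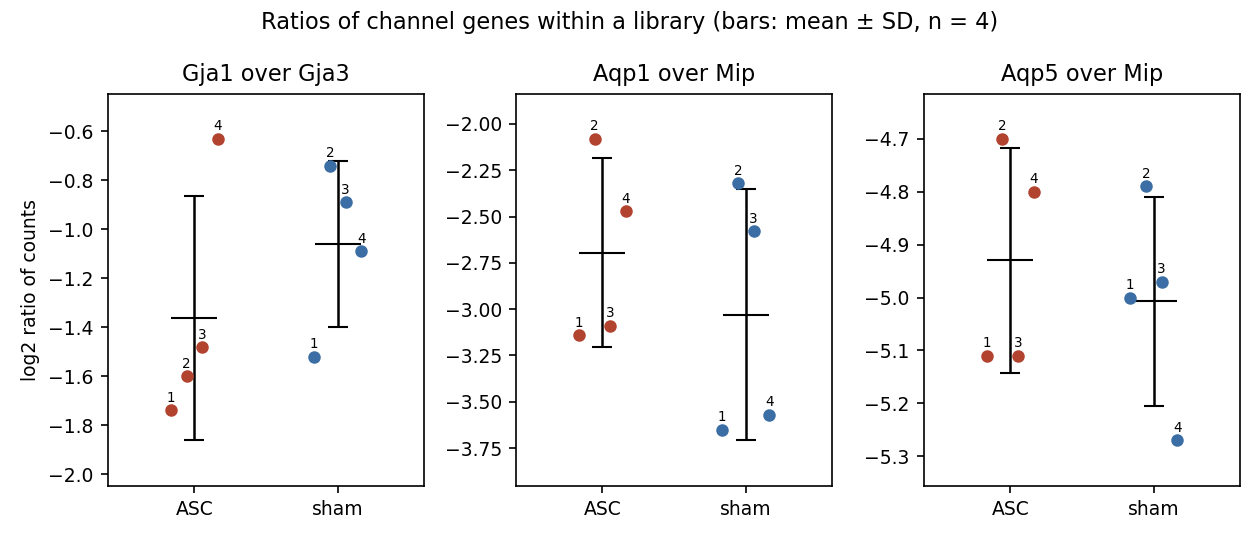
Log2 ratio of counts within a library (vertical axis) for the 3 pairs Gja1 over Gja3, Aqp1 over Mip and Aqp5 over Mip, with replicate numbers over the points and the mean ± SD as bars for the ASC and sham groups. The groups overlap in every panel; the vertical scales differ between panels.

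Other fibre membrane genes were set beside Mip. The list held the fibre membrane protein Lim2, the beaded filament proteins Bfsp1 and Bfsp2, which bind Mip, and Cadm1, Ezr and Cdh2. Of these 6, 0 passed edgeR's test, although all 6 log2 fold changes were positive (3 when scaled by library totals alone, 5 with upper quartile scaling). Bfsp1 had 4928, 1139, 2797 and 2852 CPM in ASC 1 to 4 and 1058, 608, 993 and 1378 CPM in sham 1 to 4 (log2 fold change 1.54, interval 0.52 to 2.56; adjusted p = 0.172). ASC 2, which also had the lowest Mip and fibre marker sum of its group, was the ASC library that overlapped with sham. DESeq2 called Bfsp1 (adjusted p = 0.0213), and edgeR called it without ASC 2 (log2 fold change 1.80, adjusted p = 0.0199). Bfsp2 (0.83, adjusted p = 0.34) and Lim2 (0.74, adjusted p = 0.355) were called by none of the 3 tools.

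Set against Mip within each library, a comparison chosen after the values were seen, Bfsp1, Lim2 and Bfsp2 were higher in ASC, while Gja3 overlapped between the groups. The log2 ratio of Bfsp1 to Mip was 0.34, -0.77, -0.33 and 0.43 in ASC 1 to 4 and -1.53, -1.81, -1.11 and -1.38 in sham 1 to 4, with no overlap. For Lim2 it was -0.87, -1.36, -1.04 and -0.67 in ASC 1 to 4 and -1.63, -1.86, -1.55 and -1.53 in sham 1 to 4, again with no overlap. For Bfsp2 the groups were separate by less than the second decimal, with -1.23 in both ASC 2 and sham 4. A ratio to Mip that was higher in every ASC library than in every sham library was seen for 1.27% of the 15856 other tested genes. For Gja3 the ratio averaged -1.98 ± 0.37 in ASC and -1.96 ± 0.28 in sham (SD, n = 4 each). No test is given for these ratios, since they were chosen with the values in view.

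**Figure D4:**
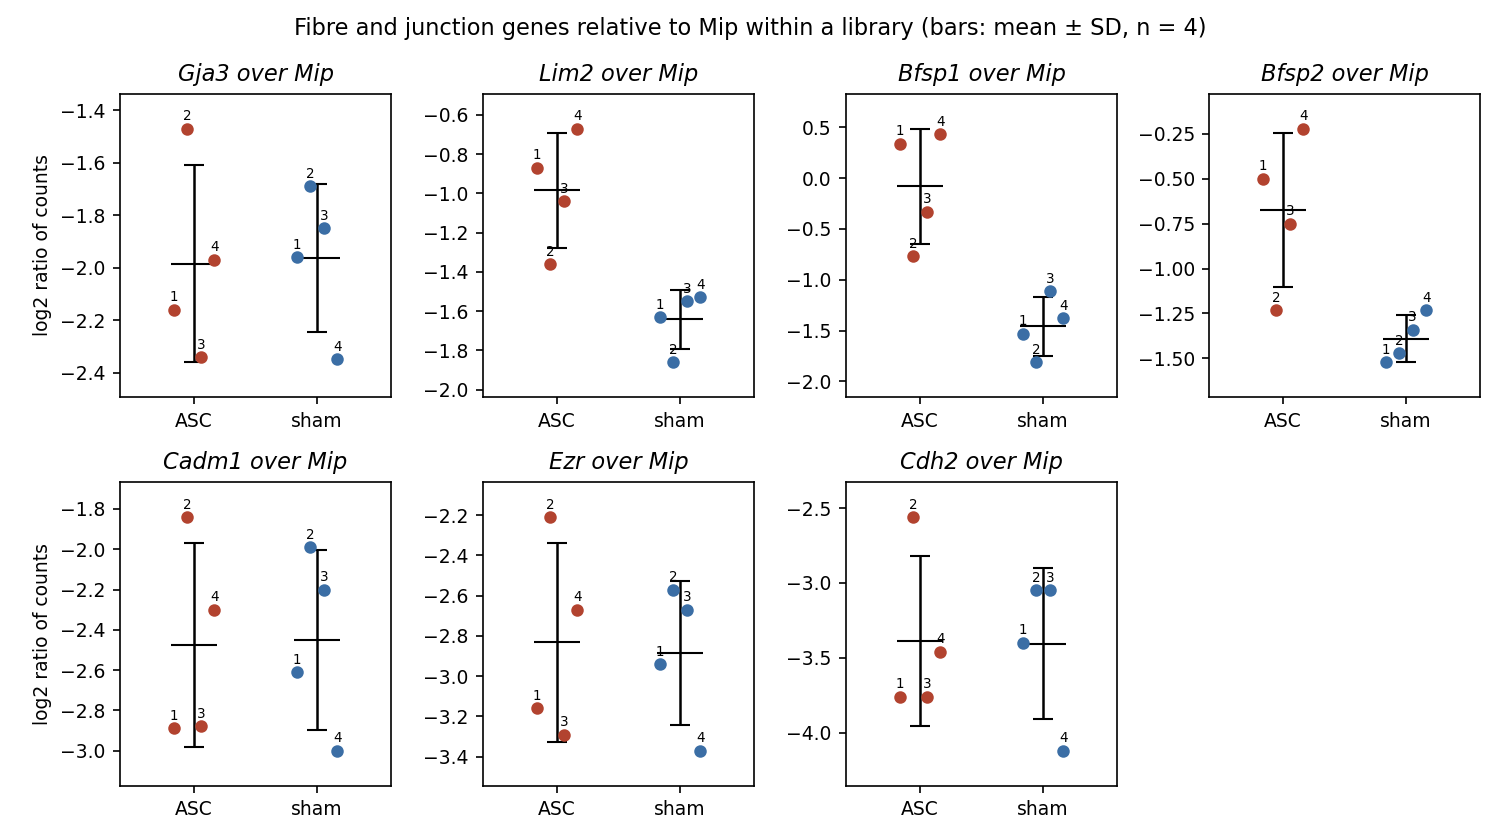
Log2 ratio of each gene's counts to those of Mip in the same library (vertical axis) for Gja3 and 6 fibre membrane genes, in ASC and sham libraries, with replicate numbers and the mean ± SD. The ASC points of Lim2 and Bfsp1 lie above all sham points, those of Bfsp2 touch at -1.23, and the groups overlap for the other 4 genes.

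Atp1b1 encodes the beta subunit that carries the sodium pump to the membrane. It had 243, 206, 172 and 223 CPM in ASC 1 to 4 and 174, 221, 197 and 162 CPM in sham 1 to 4. The groups overlapped over most of their range (log2 fold change 0.16, interval -0.12 to 0.44; edgeR adjusted p = 0.608). Its relative Atp1b3 was more abundant in CPM per kilobase and CPM alike, at 1264 to 1409 CPM in ASC and 1193 to 1597 CPM in sham (log2 fold change 0.03, -0.10 when scaled by library totals). Of the 10 other pump subunits and FXYD regulators tested, 0 passed in edgeR, DESeq2 or limma-voom. All 10 had positive log2 fold changes, 8 when scaled by library totals alone, with a median of 0.27 beside 0.008 over all tested genes.

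Photoreceptor RNA varied beside 1 gene of that list. Atp1b2, a glial and retinal beta subunit, had 54.4, 103, 100 and 101 CPM in ASC 1 to 4 and 41.6, 55.1, 137 and 56.9 CPM in sham 1 to 4. It was highest in sham within sham 3, the sham library with the most photoreceptor RNA, and lowest in ASC within ASC 1, the ASC library with the least. The part of retinal RNA in this level was not tested, and the gene was picked for this description after its values were seen.

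Slc16a12 encodes a monocarboxylate carrier that moves creatine and is linked to juvenile cataract in humans. It had 73.0, 75.0, 70.2 and 53.6 CPM in ASC 1 to 4 and 67.5, 87.5, 66.4 and 72.1 CPM in sham 1 to 4. ASC 4 was lowest and sham 2 highest, and the other 6 libraries lay between 66.4 and 75.0 CPM (log2 fold change -0.11, interval -0.38 to 0.16; edgeR adjusted p = 0.742). Basigin (Bsg), a chaperone of such carriers, had 895 ± 73.7 CPM in ASC and 786 ± 107 CPM in sham (0.19, adjusted p = 0.532), and its relative embigin (Emb) 202 ± 42.3 CPM in ASC and 185 ± 11.3 CPM in sham. Of 14 other monocarboxylate and creatine transport genes tested, 0 passed edgeR's test and 11 had positive log2 fold changes (10 under library totals). The lactate exporter Slc16a3 was at -0.15 (adjusted p = 0.523).

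DESeq2 called 1 gene of that list, Slc16a8, the lactate carrier of the retinal pigment epithelium. It had 12.8, 19.8, 10.7 and 35.2 CPM in ASC 1 to 4 and 7.86, 7.80, 4.89 and 2.90 CPM in sham 1 to 4, without overlap (log2 fold change 1.72, edgeR adjusted p = 0.156). Of 7 pigment cell markers 6 had positive log2 fold changes and 0 passed. The 7 summed to 181, 330, 492 and 656 CPM in ASC 1 to 4 and 148, 158, 255 and 89.2 CPM in sham 1 to 4. ASC 4 was highest and sham 4 lowest for both this sum and Slc16a8, but the rest of the order differed. ASC 3 had the least Slc16a8 of the ASC libraries. Sham 3 had the highest marker sum of its group but less Slc16a8 than sham 1 and sham 2. Slc16a8 is named after its values were seen, and the part of pigment epithelium in its level was not tested.

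Slc7a5 (LAT1) imports large neutral amino acids as a pair with the glycoprotein Slc3a2. It had 58.9, 60.2, 61.4 and 53.9 CPM in ASC 1 to 4 and 57.5, 59.4, 53.4 and 47.1 CPM in sham 1 to 4. It was the steadiest of the 8 genes, with a coefficient of variation of 5.63% in ASC, and 3 of its ASC libraries lay within 58.9 to 61.4 CPM. Its log2 fold change was 0.11 (interval -0.10 to 0.31; edgeR adjusted p = 0.654), so the interval holds folds of 0.934 to 1.24, the narrowest of the 8. Its partner Slc3a2, chosen for that role with values in view, had 391 ± 25.9 CPM in ASC and 348 ± 28.0 CPM in sham (0.17, adjusted p = 0.473).

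Of 26 other amino acid transporters tested, 0 passed edgeR's test, with a median log2 fold change of 0.06 (-0.08 under library totals). The 3 most abundant were the cationic amino acid carrier Slc7a2 (-0.06), the glutamine carrier Slc38a2 (0.28) and the taurine carrier Slc6a6 (0.42), with adjusted p of 0.468 or more. DESeq2 called 1 of the list, Slc1a1, a glutamate carrier, with 47 to 206 reads in ASC libraries and 19 to 87 in sham libraries (edgeR adjusted p = 0.244).

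Among carriers of glucose, ascorbate and inositol, 0 of 10 passed edgeR's test, and DESeq2 and limma-voom also called 0. Slc2a1 (GLUT1), the main glucose carrier of the lens, had 822 ± 24.6 CPM in ASC and 780 ± 53.3 CPM in sham (log2 fold change 0.08, interval -0.15 to 0.31). The inositol carrier Slc5a3, an osmotic stress gene, was at -0.29 and the ascorbate carrier Slc23a2 at 0.30 (adjusted p = 0.668 and 0.43). Of 21 genes of ion transport and volume control, 0 passed any of the 3 tools, with log2 fold changes of -0.13 to 0.45. The sodium-potassium-chloride cotransporter Slc12a2 was at 0.16 (251 ± 47.5 CPM in ASC, 224 ± 34.1 CPM in sham), the kinase Wnk1 that regulates it at -0.03 and the calcium pump Atp2a2 at 0.15.

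Over all 8 lists, 100 of 127 further transport genes were tested, and 1 rose and 0 fell in edgeR's test. That is near the 1.02% of all tested genes that passed. The gene that rose was Aqp3, a glycerol-conducting aquaporin of surface epithelia such as that of the cornea, named after its values were seen. It had 12, 11, 11 and 12 reads in ASC 1 to 4 and 0, 2, 0 and 0 reads in sham 1 to 4. Aqp3 had enough reads to be tested only through the ASC libraries, where it is high. Its calls are therefore a description and not support. The 46 reads in ASC and 2 in sham give a ratio of 24.3 per library total, with an exact 95% interval of 6.36 to 207 that covers counting error only (edgeR adjusted p = 0.0237). DESeq2 and limma-voom also called it, and the call was lost without any 1 of ASC 1, ASC 3, ASC 4, sham 1, sham 3 or sham 4 (adjusted p up to 0.0738). At 0.597 to 0.81 CPM it remained far below Mip, Aqp1 and Aqp5 in every ASC library. Corneal keratins moved in the same direction. Krt5 had 4.02 to 16.7 CPM in ASC and 0.447 to 1.73 CPM in sham, and Krt12 4.27 ± 1.51 CPM in ASC and 0.435 ± 0.421 CPM in sham (n = 4 each). Both keratins were called higher in ASC (edgeR adjusted p = 0.0387 for Krt5 and 0.0395 for Krt12). Their sham libraries alone did not hold enough reads for the test, so these calls too are a description and not support. They were 2 of the 9 corneal epithelial markers listed, of which 6 were tested. Summed over the 9, the level was 444 to 1033 CPM in ASC and 468 to 686 CPM in sham, most of it Aldh3a1, while Krt16 was at or near 0 in all libraries. The part of corneal epithelium in the Aqp3 level was not tested. The other aquaporins named by abundance were Aqp4 (98.6 ± 10.2 CPM in ASC, 98.1 ± 21.4 CPM in sham), Aqp11 (-0.03) and Aqp8 (1.17, adjusted p = 0.323). Other connexins named by abundance were Gje1 (0.59) and Gjc1 (-0.21), and 0 of 9 tested connexins and pannexins passed in edgeR, DESeq2 or limma-voom.

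**Figure D5:**
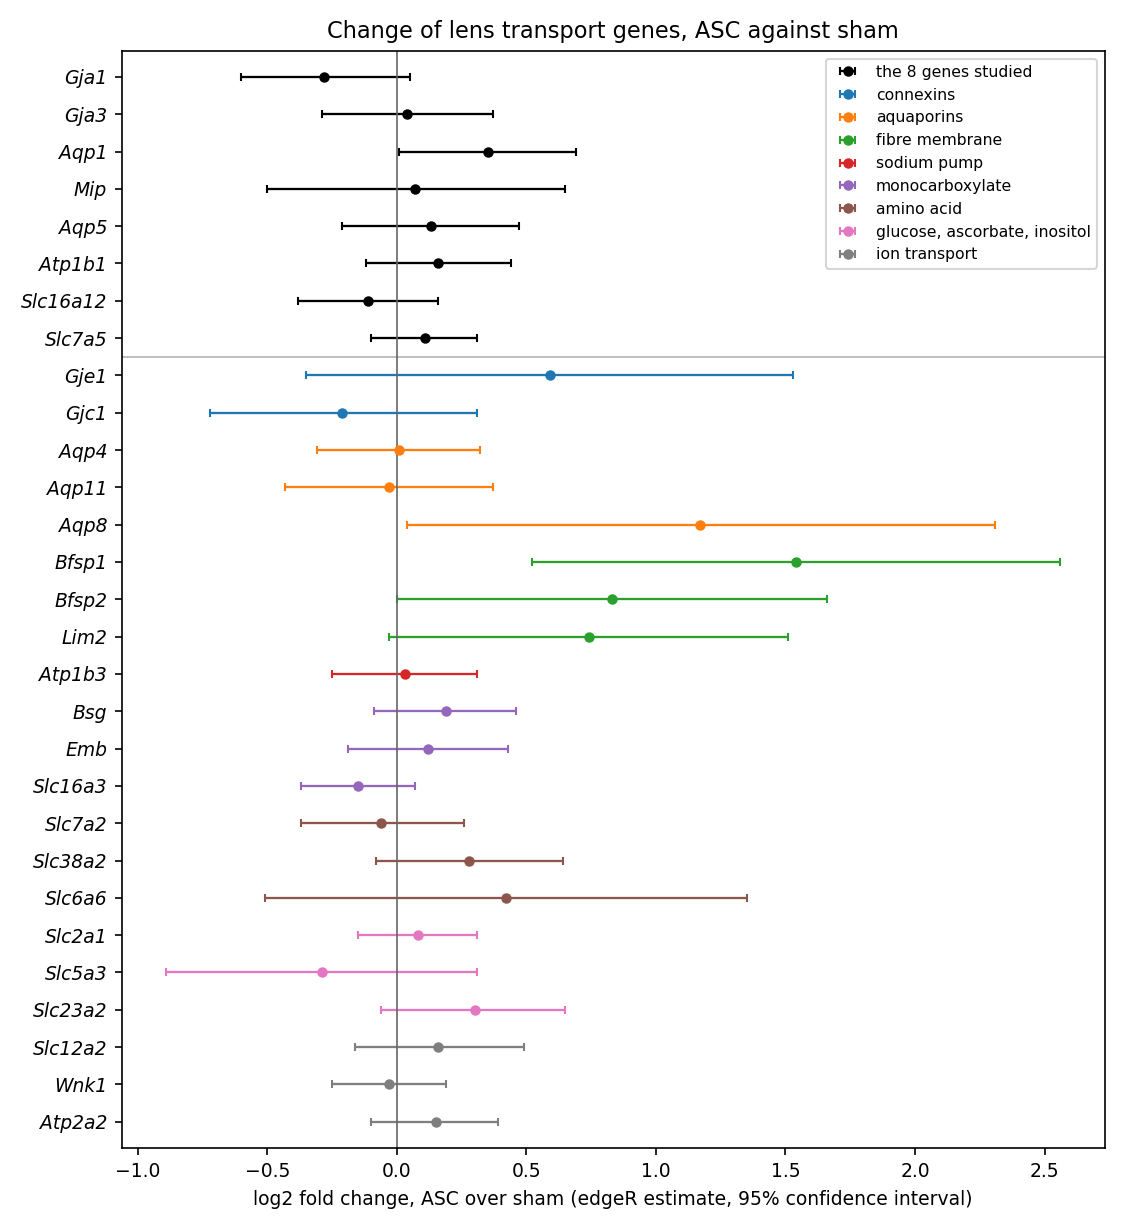
Log2 fold change of ASC over sham (horizontal axis) with a 95% confidence interval derived from edgeR's F test. The 8 genes lie above the line. Below it, coloured by list, are 1 to 3 genes named from each of the 8 further lists. All 8 estimates above the line lie between -0.28 and 0.35, and of the 3 fibre membrane genes Bfsp1 lies farthest to the right, at 1.54.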

How the data were processed

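The authors deposited whole-number read counts for each gene, without normalization. The labels' protocols describe poly-T bead selection of mRNA and random-primed libraries. CASAVA, fastp, HISAT2 2.0.5 and featureCounts 1.5.0-p3 are named, per the submitters' processing notes. Genome build, annotation and strand setting were not stated there, so reads of overlapping antisense genes could not be separated. Symbols matched 54409 of 54532 identifiers, and 0 count columns were left out.

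Counts were analysed in R 4.3.3 with edgeR 4.0.16, using filterByExpr (15857 genes kept), TMM scaling and the robust quasi-likelihood F test between ASC and sham. No covariate was fitted, and p-values received Benjamini-Hochberg adjustment across the genes kept, with 0.05 as the threshold. EdgeR's test gives no SE, so the SE was taken as the absolute log2 fold change over the square root of F. The 95% intervals of log2 fold changes used this SE and a t quantile, and are approximate. Ratios used log2 counts with a pseudocount of 0.5 and two-sided exact permutation tests. CPM per kilobase used GENCODE M21 exon lengths. Alternatives were DESeq2 1.42.0, voom with sample weights (limma 3.58.1), other scalings and filters, no robust estimation, the replicate number as a block and each library left out. The fits were tested on simulated data.

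The 8 genes, the further lists and the tests were chosen with earlier results of these data known. Besides the 8, the genes named were, per list, up to 4 called genes whose average log2 CPM reached 1, or otherwise the 3 most abundant, and the 2 most abundant of each marker list. Exceptions are stated, and some genes that the rule named are not reported here. The labels call the replicates biological without tying them to animals, so p-values measure the spread between these libraries. There were no molecular identifiers, so intervals on reads cover counting error only.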

Additional observations from a re-analysis of the deposited data

Results flagged for a closer look

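In 86 groups of 4 libraries checked (the 8 genes, the further genes named, the ratios and the marker sums), 3 held a library set apart from the other 3 by a gap above Dixon's critical value for a 95% level. Chance alone flags some groups in a set of this size. ASC 3 had the highest Aqp4 of its group, 114 CPM, where the other ASC libraries had 92.2 to 94.9 CPM. Sham 2 had the highest Atp1b3 of its group, 1597 CPM, where the other sham libraries had 1193 to 1245 CPM. Sham 2 held the only sham reads of Aqp3, 2 reads or 0.0934 CPM, and the other sham libraries had 0.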

How the results depend on the processing

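None of the 8 genes was called under any of the 18 alternatives, and the median of their log2 fold changes was -0.041 to 0.143. Gja1, Aqp1, Aqp5, Atp1b1 and Slc16a12 kept the sign of their log2 fold change under all 18. Scaling by library totals alone reversed Gja3 (-0.09), Mip (-0.06), Slc7a5 (-0.022), Aqp4 (-0.137), Atp1b3 (-0.099), Emb (-0.01) and Slc2a1 (-0.05), all with adjusted p of 0.772 or more. Aqp4 was at -0.009 with upper quartile scaling and -0.007 without a filter, and limma-voom gave 0.011 for Aqp11. With 1 library left out, values ranged from -0.084 to 0.143 for Gja3, -0.111 to 0.23 for Mip, -0.096 to 0.113 for Aqp4, -0.085 to 0.04 for Aqp11, -0.011 to 0.135 for Atp1b3, -0.136 to 0.036 for Slc7a2 and -0.075 to 0.047 for Wnk1. The difference of the Aqp5 to Mip ratio ranged from -0.009 to 0.151. Of 100 further transport genes tested, edgeR called 1 and DESeq2 called 4 (Aqp3, Bfsp1, Slc16a8 and Slc1a1), where DESeq2 called 3.74% of all tested genes. Without a filter the number was 9 of 125. With a CPM of at least 1 in 4 libraries, which leaves Aqp3 out, the number was 0 of 91. It was 0 to 2 with 1 library left out: 2 without ASC 2, and 0 without ASC 1, ASC 3, ASC 4, sham 1, sham 3 or sham 4. Over all genes, 162 of 15857 were called, against 593 by DESeq2, 712 of 31455 without a filter and 56 to 228 with 1 library left out. The cause was not tested. With the replicate number as a block, 2 further transport genes were called (Aqp3 and Bfsp1) and 169 genes in all. Same-numbered libraries' deviations from their group means correlated at 0.297, 0.052, 0.254 and -0.203. Of the 4 ASC libraries ASC 3 alone correlated best with its own number. With 4 libraries a group, these values cannot show whether the numbers pair the libraries. At 4 libraries a group, the intervals of the 8 genes leave room for changes between 0.660-fold and 1.61-fold.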

Other observations

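The 2 genes of the lens epithelium stood on opposite sides of no change, Gja1 at -0.28 and Aqp1 at 0.35. Their log2 ratio within a library, Aqp1 over Gja1, was 0.76, 0.99, 0.73 and 0.13 in ASC 1 to 4 and -0.17, 0.11, 0.16 and -0.13 in sham 1 to 4. ASC 4 fell inside the sham range and the other ASC libraries lay above it. This pair was chosen after the values were seen and was not tested.

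Beta connexins of surface epithelia were near the limit of detection. Gjb2 had 2, 9, 37 and 5 reads in ASC 1 to 4 and 0, 0, 2 and 1 reads in sham 1 to 4. Gjb6 had 9 to 42 reads in ASC and 3 to 10 in sham. They had too few reads for the main test, and without a filter on low counts edgeR called Gjb2 (adjusted p = 0.000778) and, at the threshold itself, Gjb6. Krt5 and Krt12, given above, were higher in the same group, and the limit stated there holds here. The part of corneal cells in these counts was not tested.

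Genes whose levels varied most like each of the 8 were sought among the 9537 genes whose average log2 CPM was 3 or more, by Pearson correlation over the 8 libraries after subtracting group means. The closest to Mip were Anxa3 (r = 0.991), Tmem40 (0.988) and Gm26847 (0.986), and the closest to Gja3 were Pmpca (0.991), Pus7 (0.976) and Ddx1 (0.971). The closest to Gja1 were Nck1 (0.984), Thap2 (0.979) and R3hcc1l (0.976), to Aqp1 Zfp946 (0.987), Wdr82 (0.982) and Tram1 (0.972), and to Aqp5 Ncaph2 (0.995), Anapc5 (0.993) and Serpind1 (0.991). For Atp1b1 they were Mthfd1 (0.985), Pik3r1 (0.974) and Ski (0.972), for Slc16a12 Npm1 (0.99), Ing1 (0.977) and Psma4 (0.971), and for Slc7a5 Stk38 (0.966), Oxr1 (0.965) and Ythdf2 (0.959). They are a description, with no test. The libraries share their depth and tissue make-up.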
